A study of Homo sapiens with 6 samples.

Results

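The levels of 10 genes that hold the growth kinase mTOR in check, or that make up its core, were followed in HT-1080 cells, a line from a human fibrosarcoma, treated for 4 h with a compound described by the series as an IRAK4 inhibitor or with solvent. They are the sestrins SESN1, SESN2 and SESN3, the stress-induced DDIT4 (also called REDD1), the tuberous sclerosis genes TSC1 and TSC2, RHEB, MTOR, RPTOR and DEPTOR, 10 of the 20683 gene symbols in the count tables, matched by symbol. The set was selected on results of this same comparison, in which SESN2 and DDIT4 had stood among the largest differences. The members' differences between the groups are therefore given as a description, without printed p values. Calls and thresholds mentioned for members belong to that description and are no test of them. Treated cells carried the label 5 mM SLV-8472-01, a code name, and control cells 0.1% DMSO. The labels do not say whether 5 mM was the concentration on the cells. Each group had 3 libraries, which the series design calls biological replicates, all of this 1 line, grown in medium with serum. Messenger RNA was read with the Ion AmpliSeq Transcriptome panel, in which a short amplicon stands for each gene. A normalised count (CPM, counts scaled to a library of 1000000 with TMM factors) therefore follows that amplicon. It does not grow with the length of the mRNA, and levels of different genes do not give the order of their mRNA amounts.

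mTOR complex 1 (mTORC1) is a kinase complex, built on MTOR and its substrate-binding partner RPTOR, that drives protein synthesis and growth when nutrients and growth factors are plentiful. It is switched on at the lysosome by the small GTPase RHEB, and the TSC1-TSC2 complex switches RHEB off. Sestrins restrain the nutrient arm by binding the GATOR2 complex, and SESN2 is known as a leucine sensor. DDIT4 restrains the growth factor arm through TSC1-TSC2. DEPTOR binds MTOR and inhibits it. SESN2 and DDIT4 are textbook stress genes, SESN2 as a target of ATF4 and DDIT4 as a target of ATF4 and of the hypoxia factor HIF1.

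SESN2 and DDIT4, the members with by far the largest differences, are shown with the 250 bases before their RefSeq transcript starts. The windows are on GRCh38.p14, plus strand, at chr1:28259268-28259517 for SESN2 and chr10:72273674-72273923 for DDIT4. In GENCODE 29 no exon reaches into the SESN2 window, and an exon of DDIT4 covers the last 4 bases of the DDIT4 window. Capitals mark matches, on either strand, to TGATGNAA (the C/EBP-ATF response element that ATF4 can bind), ACGTG (the core of the hypoxia response element) and CCAAT.
SESN2: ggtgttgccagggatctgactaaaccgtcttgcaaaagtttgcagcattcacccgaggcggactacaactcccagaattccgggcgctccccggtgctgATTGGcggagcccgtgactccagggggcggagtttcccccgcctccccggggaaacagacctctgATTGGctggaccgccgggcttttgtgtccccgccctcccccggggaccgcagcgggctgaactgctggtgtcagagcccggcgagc
DDIT4: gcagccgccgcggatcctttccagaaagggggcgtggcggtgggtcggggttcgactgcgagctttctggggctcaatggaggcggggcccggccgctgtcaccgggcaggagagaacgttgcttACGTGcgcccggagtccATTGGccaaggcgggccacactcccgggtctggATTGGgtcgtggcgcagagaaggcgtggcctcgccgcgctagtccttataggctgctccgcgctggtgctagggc

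Windows were found for 9 members, 12 windows in all, since some genes have several starts. SESN2 had 2 CCAAT matches, both on the opposite strand, which begin 151 and 86 bases before the start. DDIT4 had 2 CCAAT matches, at 108 and 75 bases, and 1 ACGTG match at 125 bases. CCAAT was also present 3 times before MTOR, 2 times before RHEB and once in each of 2 SESN1 windows. It was in 6 of the 12 member windows, and it occurs in 32.0% of the 35116 windows of this length in the table. ACGTG occurs in 18.5% of them, and in 3 of the 12 member windows, those of DDIT4, RHEB and TSC2. TGATGNAA occurs in 3.14% of them and in 1 of the 12 member windows. That match, TGATGCAA, begins 110 bases before a TSC2 start and overlaps ACGTG matches on both strands, and exons of TSC2 and of its neighbour NTHL1 are annotated in that window. No match to TGATGNAA lay in the SESN2 or DDIT4 window, which says only that these letters are not in those 250 bases.

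The libraries held 7644478 to 11427779 counts with the inhibitor and 12003104 to 15336351 with DMSO, so every treated library was the shallower. Of 11391 genes tested, 20.2% were called, 9.92% upward and 10.3% downward (edgeR quasi-likelihood test, adjusted p under 0.05 by Benjamini-Hochberg). The upward calls made up 49.2% of all calls, and 32.7% with library totals as the only scaling. CPM values of the groups did not overlap for 36.3% of tested genes. All 8 markers listed for the line were present, among them VIM at 5648 ± 546 CPM with DMSO (SD, n = 3). Their summed level was 8502 to 9543 CPM with DMSO and 9506 to 11865 with the inhibitor, and 5 of the 8 rose. Of 6 epithelial markers, KRT8 and KRT18 were expressed, CDH1 had no count and EPCAM was under 0.05 CPM in both group means. The 6 blood and endothelial markers summed to under 1 CPM in every library. The part of these markers in the results below was not tested, and values in libraries thinned to the smallest total are given beside SESN2, DDIT4 and DEPTOR. In bulk RNA a change in every cell and a change in the share of cells that express a gene cannot be told apart.

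SESN2 and DDIT4 were about 5-fold higher with the inhibitor, and SESN1 and DEPTOR were higher by less than 2-fold. SESN3, TSC1, TSC2, RHEB, MTOR and RPTOR differed by 1.22-fold or less. Whether the cells were under stress was not measured. All 10 members passed the low-count filter. The fit across all genes called 4 of them upward (SESN1, SESN2, DDIT4 and DEPTOR), beside 9.92% of all tested genes, and 0 downward, beside 10.3%. At an unadjusted p under 0.05, 1 was lower (MTOR), and both DESeq2 and limma voom called 0 downward. The groups did not overlap for 5 of the 10, beside 36.3% of all tested genes. As the members were selected on this comparison, nothing is read from these counts. Their median log2 fold change (inhibitor minus DMSO) was 0.13, and 0.04 without SESN2 and DDIT4, beside 0.0034 for all tested genes.

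**Figure D1:**
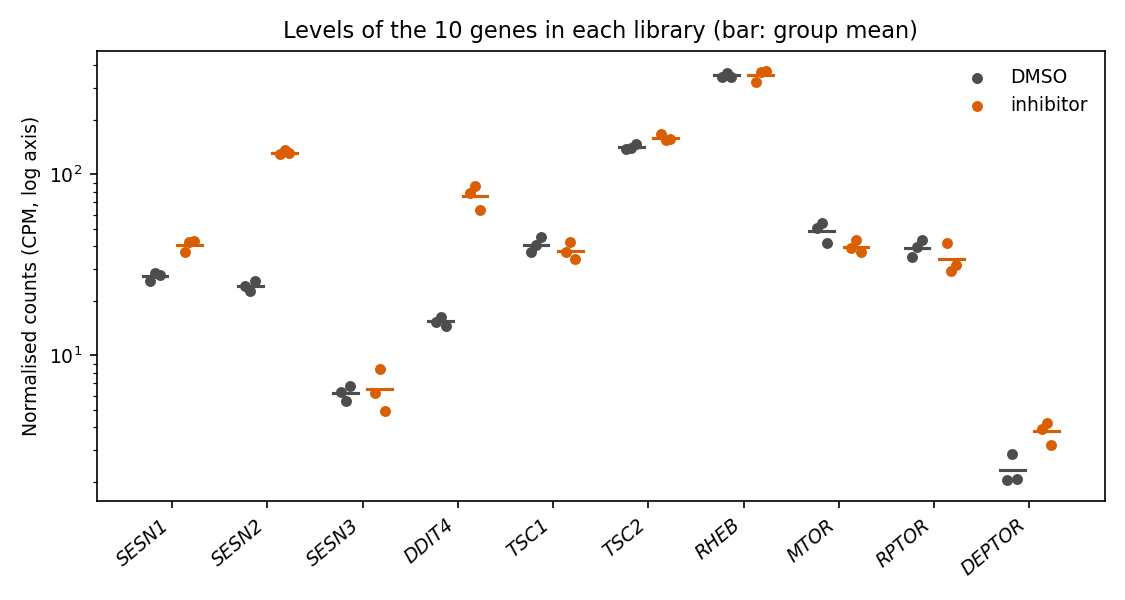
Normalised counts (CPM, log axis) of the 10 genes, with 1 point per library and a bar at the mean of each group of 3. For SESN2 and DDIT4 the inhibitor libraries sit at 129.8 to 136 and 63.6 to 86.2 CPM, far from the DMSO libraries at 22.7 to 25.8 and 14.5 to 16.4, while the points of TSC1, RHEB, MTOR and RPTOR overlap.

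Among the sestrins, SESN2 was the one that differed most. SESN2 was at 24.1, 22.7 and 25.8 CPM in DMSO replicates 1 to 3 and at 129.8, 136 and 131 CPM in inhibitor replicates 1 to 3. The treated libraries lay close together, and the lowest of them was far above the highest control. The means were 24.2 ± 1.55 and 132 ± 3.21 CPM (SD, n = 3), a ratio of 5.46 and a log2 fold change of 2.45 ± 0.11 (SE). SESN2 ranked 10 from the top among the 11391 tested genes by log2 fold change.

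SESN1, the founding member of the family, had 25.7, 28.5 and 27.9 CPM with DMSO and 37.4, 42.1 and 42.9 CPM with the inhibitor. Again every treated library was above every control, but by a ratio of only 1.49 (27.4 ± 1.48 against 40.8 ± 2.97 CPM, log2 fold change 0.57 ± 0.11). SESN3, the sestrin known as a target of FOXO factors, had 6.24, 5.62 and 6.82 CPM with DMSO and 6.19, 8.38 and 4.96 CPM with the inhibitor. The groups overlapped, and the inhibitor libraries held both the highest and the lowest value (log2 fold change 0.08 ± 0.20). With 37 to 98 counts a library, SESN3 was measured less precisely than the others, and its estimate ran from -0.14 to 0.22 when single libraries were left out.

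The mix of sestrin reads therefore differed between the groups. SESN2 gave 43.0%, 39.9% and 42.6% of the reads of the 3 sestrin genes in the DMSO libraries, the last with a 95% Wilson interval of 39.0% to 46.2%. With the inhibitor it gave 74.9%, 72.9% and 73.2%, the last with an interval of 70.7% to 75.5%. These intervals cover counting error only, since PCR reads without molecular tags are not independent molecules. The SESN1 share was 47.4% ± 2.44 with DMSO and 22.7% ± 1.24 with the inhibitor (SD, n = 3), although SESN1 itself was higher. The SESN3 share was 10.8% ± 0.758 and 3.62% ± 0.861. Summed over the family, the reads came to 57.8 ± 2.37 CPM with DMSO and 179 ± 6.45 with the inhibitor, a ratio of 3.10. Amplicons differ in how well they amplify, so the shares and the sum are of reads. The sizes of their differences between groups, the ratio of 3.10 among them, also depend on the amplicons. Only the ratio of a single gene does not mix amplicons.

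**Figure D2:**
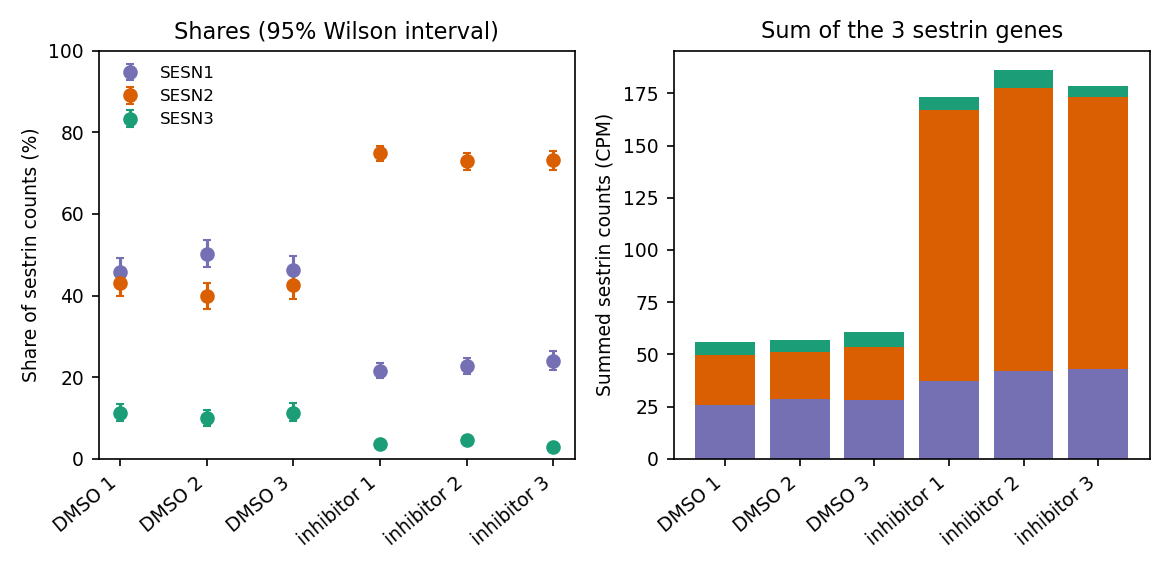
Left, share of each sestrin gene in the summed sestrin reads of each library (%, bars are 95% Wilson intervals). Right, normalised counts (CPM) of the 3 genes stacked by library. SESN2 moves from 39.9% to 43.0% of reads in the DMSO libraries to 72.9% to 74.9% in the inhibitor libraries, and the stacked total from 56.1 to 60.5 CPM up to 173 to 186 CPM.

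DDIT4, which acts through TSC1-TSC2 in stressed cells, had 15.3, 16.4 and 14.5 CPM with DMSO and 78.8, 86.2 and 63.6 CPM with the inhibitor. The groups were far apart, and inhibitor replicate 3, the shallowest library, was the lowest of the treated ones. The means were 15.4 ± 0.935 and 76.2 ± 11.5 CPM (SD, n = 3), a ratio of 4.95 and a log2 fold change of 2.31 ± 0.13 (SE), which ranked 15 among the tested genes. The difference was as large in libraries thinned to the smallest total (2.38 for DDIT4 and 2.51 for SESN2). SESN2 had 1.58 ± 0.195 counts per DDIT4 count with DMSO and 1.76 ± 0.257 with the inhibitor, with overlapping libraries.

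The nearest genes in pattern were sought by the root mean square difference of log2 CPM, centred on each gene's mean, over the 6 libraries. Among 9235 genes that averaged 5 CPM or more, those nearest to SESN2 were TAGLN3 (0.163), DDIT4 (0.175) and TRIB3 (0.178). Those nearest to DDIT4 were SLFN5 (0.122), TAGLN3 (0.128) and TRIB3 (0.153). TRIB3, a pseudokinase that binds AKT, was at 99.2 ± 6.04 CPM with DMSO and 471 ± 52.2 with the inhibitor. TAGLN3 was at 12.8 ± 0.953 and 60.9 ± 5.56 CPM, and SLFN5 at 50.2 ± 5.00 and 221 ± 32.0. The measure rests on 6 libraries in 2 groups, so it mostly finds genes with a like fold change.

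The TSC complex differed little. TSC1, the scaffold subunit, had 37.0, 40.6 and 44.9 CPM with DMSO and 37.0, 42.3 and 33.9 CPM with the inhibitor, with overlap (log2 fold change -0.11 ± 0.12). TSC2, the subunit that acts on RHEB, had 138, 140.0 and 147 CPM with DMSO and 167, 156 and 157 CPM with the inhibitor. All treated libraries of TSC2 were above the controls, but the ratio was 1.13 (log2 fold change 0.18 ± 0.10) and the fit made no call. With library totals as the scaling the TSC2 value was 0.10. TSC2 had 3.48 ± 0.236 counts per TSC1 count with DMSO and 4.27 ± 0.520 with the inhibitor (SD, n = 3), and the libraries of the groups overlapped.

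RHEB, the GTPase that activates mTORC1, had 347, 365 and 347 CPM with DMSO and 325, 367 and 372 CPM with the inhibitor. The groups overlapped fully, and the log2 fold change was 0.01 ± 0.10, with 98.8% of tested genes having a larger absolute value. RHEB has annotated pseudogenes (RHEBP1, RHEBP2 and RHEBP3), and reads from near-identical copies could not be separated here.

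MTOR, the kinase, had 50.5, 54.1 and 41.9 CPM with DMSO and 39.3, 43.2 and 37.1 CPM with the inhibitor. DMSO replicate 3 was lower than inhibitor replicate 2, so the groups overlapped. The log2 fold change was -0.29 ± 0.12, with means of 48.8 ± 6.27 and 39.9 ± 3.08 CPM (SD, n = 3), and no call was made. It passed the threshold downward without DMSO replicate 3 (-0.39) and with library totals as the scaling (-0.37). RPTOR, the subunit that recruits substrates, had 35.1, 39.6 and 43.3 CPM with DMSO and 41.7, 29.2 and 31.6 CPM with the inhibitor. Inhibitor replicate 1 lay among the controls, and the log2 fold change of -0.19 ± 0.13 became -0.37 without that library. MTOR gave 1.26 ± 0.253 counts per RPTOR count with DMSO and 1.20 ± 0.271 with the inhibitor.

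DEPTOR, the inhibitory partner of MTOR, had few counts, 32, 44 and 25 in the DMSO libraries and 44, 39 and 24 with the inhibitor. Scaled for depth these were 2.04, 2.84 and 2.08 CPM with DMSO and 3.95, 4.24 and 3.22 CPM with the inhibitor. The groups did not overlap, and the ratio was 1.64 (log2 fold change 0.71 ± 0.25). The call depended on the setting. The fit made none without inhibitor replicate 1, without inhibitor replicate 2, without DMSO replicate 1 or without DMSO replicate 3, none with library totals as the scaling, and DESeq2 made none. In libraries thinned to the smallest total, the estimate was 0.38, also without a call.

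**Figure D3:**
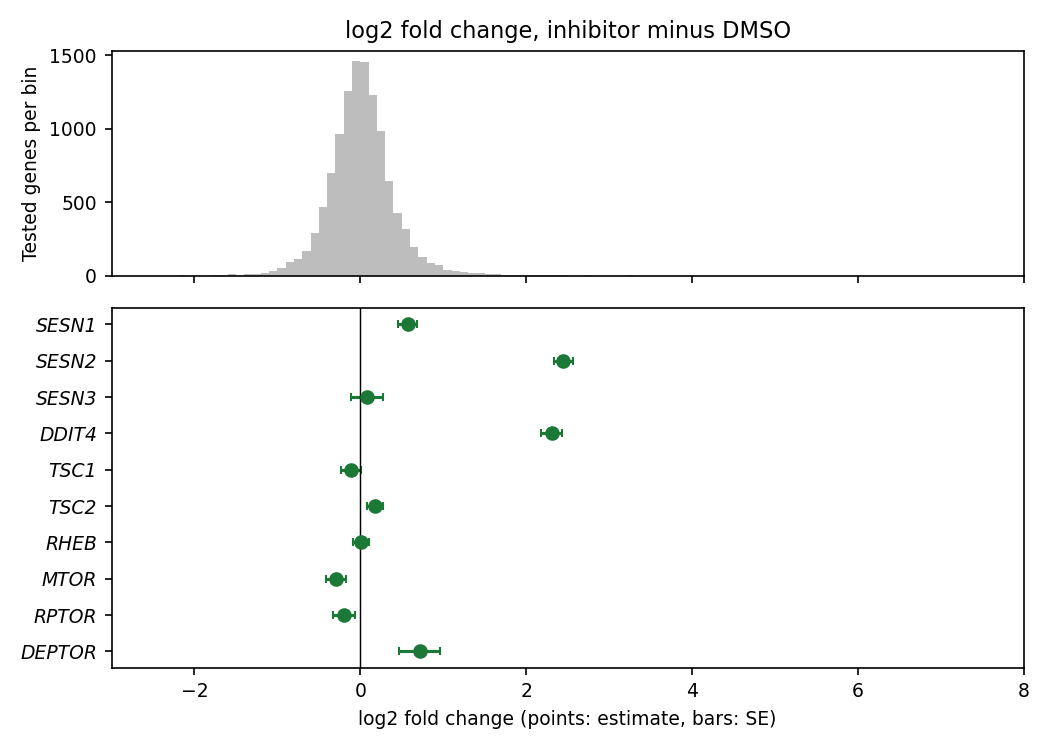
Top, histogram of log2 fold changes (inhibitor minus DMSO) of all tested genes. Bottom, the estimate of each of the 10 genes with its SE on the same axis. SESN2 at 2.45 and DDIT4 at 2.31 lie in the sparse right tail, SESN1 (0.57) and DEPTOR (0.71) on its near side, and the other 6 between -0.29 and 0.18.

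The wider mTORC1 network was then counted from lists of partners, nutrient sensors, upstream kinases and outputs that hold none of the 10 genes. The partners include genes of the sister complex mTORC2, such as RICTOR. Of 64 tested network genes, 6 rose and 8 fell (21.9% called), beside 20.2% of all tested genes, and their median log2 fold change was -0.05, beside 0.0034. The share is near the background and is no result about the network as a whole. Leaving out inhibitor replicate 1 left 4 genes that fell, and leaving out inhibitor replicate 2 left 3. Values below are log2 fold changes ± SE with the adjusted p of edgeR over all genes.

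Of 7 tested partners of the mTOR complexes, 2 fell, beside 10.3% of all tested genes, and 0 rose, beside 9.92% (0 also at an unadjusted p under 0.05, with DESeq2 and with limma voom). RICTOR, the scaffold of the sister complex mTORC2, was at 16.4 ± 0.16 CPM with DMSO and 11.0 ± 2.43 with the inhibitor (-0.59 ± 0.16, adjusted p = 0.0116), and PRR5L, which binds that complex, changed by -0.44 ± 0.13 (adjusted p = 0.0233). MAPKAP1, another mTORC2 subunit, named after its value was seen, had a log2 fold change of -0.06 ± 0.11 (adjusted p = 0.751), and PRR5, also named afterwards, had no count in any library. RICTOR lost its call without inhibitor replicate 1 (adjusted p = 0.0909). That of PRR5L was lost without inhibitor replicate 1 (0.0563), inhibitor replicate 2 (0.155) or DMSO replicate 2 (0.0993).

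GATOR1 shuts the nutrient arm, and GATOR2, the complex that sestrins bind, relieves it. Of 16 tested genes of GATOR1, GATOR2, KICSTOR and the amino acid sensors, 1 rose, beside 9.92% of all tested genes, and 0 fell, beside 10.3% (0 also at an unadjusted p under 0.05, with DESeq2 and with limma voom). That gene was C12orf66, a KICSTOR subunit (0.77 ± 0.21, adjusted p = 0.0127), from 3.09 ± 0.19 to 5.24 ± 0.44 CPM. C12orf66 lost its call without inhibitor replicate 1 (adjusted p = 0.0653), and 2 genes rose without inhibitor replicate 3. At a minimum mean of 10 CPM, which leaves C12orf66 untested, 0 rose.

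The Rag GTPases bring mTORC1 to the lysosome, with the Ragulator complex as their anchor and folliculin (FLCN) and its partners FNIP1 and FNIP2 as activators of RRAGC and RRAGD. Of 12 tested genes, 3 fell, beside 10.3% of all tested genes, and 0 rose, beside 9.92% (0 also at an unadjusted p under 0.05, with DESeq2 and with limma voom). The 3 were FLCN (-0.47 ± 0.13, adjusted p = 0.015), FNIP2 (-0.46 ± 0.12, adjusted p = 0.00775) and FNIP1 (-0.35 ± 0.10, adjusted p = 0.0201). FNIP1 was at 99.2 ± 7.96 CPM with DMSO and 77.9 ± 1.42 with the inhibitor. The FNIP2 call held under every alternative (adjusted p at most 0.0376). The FLCN call was lost without inhibitor replicate 2 (0.0584), inhibitor replicate 3 (0.0505) or DMSO replicate 1 (0.0786), and FNIP1 without inhibitor replicate 1, inhibitor replicate 2, DMSO replicate 1 or DMSO replicate 2 (0.0514 to 0.0919). With either inhibitor replicate 2 or DMSO replicate 1 left out, 1 gene of the list fell.

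On the TSC side and among upstream kinases, 2 of 14 tested genes rose and 2 fell (28.6% called, beside 20.2% of all tested genes). PRKAB2, a regulatory subunit of the energy sensor AMPK, rose from 8.49 ± 1.15 to 14.6 ± 2.12 CPM (0.77 ± 0.16, adjusted p = 0.00181). CAB39, the scaffold of the AMPK-activating kinase STK11, fell from 43.3 ± 3.39 to 28.7 ± 2.89 CPM (-0.59 ± 0.12, adjusted p = 0.00125), and PDPK1, which activates AKT, changed by -0.43 ± 0.12 (adjusted p = 0.0162). The other gene that rose, STRADA (0.39 ± 0.13, adjusted p = 0.0354), also a partner of STK11, is named after its value was seen. The PDPK1 call was lost without inhibitor replicate 2 (0.095) or DMSO replicate 3 (0.108). The STRADA call was lost without inhibitor replicate 2, inhibitor replicate 3, DMSO replicate 1 or DMSO replicate 3 (0.0908 to 0.127) and with library totals as the scaling (0.0893). AKT1 and AKT2, named after their values were seen, had log2 fold changes of -0.11 and -0.09.

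Of 15 tested outputs of mTORC1, 3 rose and 1 fell (26.7% called, beside 20.2% of all tested genes). GRB10, an adaptor that restrains insulin signalling, rose from 76.2 ± 3.67 to 119 ± 13.5 CPM (0.64 ± 0.11, adjusted p = 2.22e-04). LPIN1, a phosphatidate phosphatase (0.51 ± 0.14, adjusted p = 0.0101), and EIF4EBP1, the translation repressor that mTORC1 switches off (0.37 ± 0.10, adjusted p = 0.0126), rose as well. EIF4E, the cap-binding factor that EIF4EBP1 holds, fell from 165 ± 12.3 to 129 ± 7.41 CPM (-0.35 ± 0.10, adjusted p = 0.0174) and is named after its value was seen. The call was lost for LPIN1 without inhibitor replicate 2 (0.064) or DMSO replicate 1 (0.0704), for EIF4EBP1 without DMSO replicate 2 (0.102), and for EIF4E without inhibitor replicate 1, inhibitor replicate 2 or DMSO replicate 3 (0.0583 to 0.0843). These are mRNA levels, and the phosphorylation by which mTORC1 acts on these proteins was not measured.

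**Figure D4:**
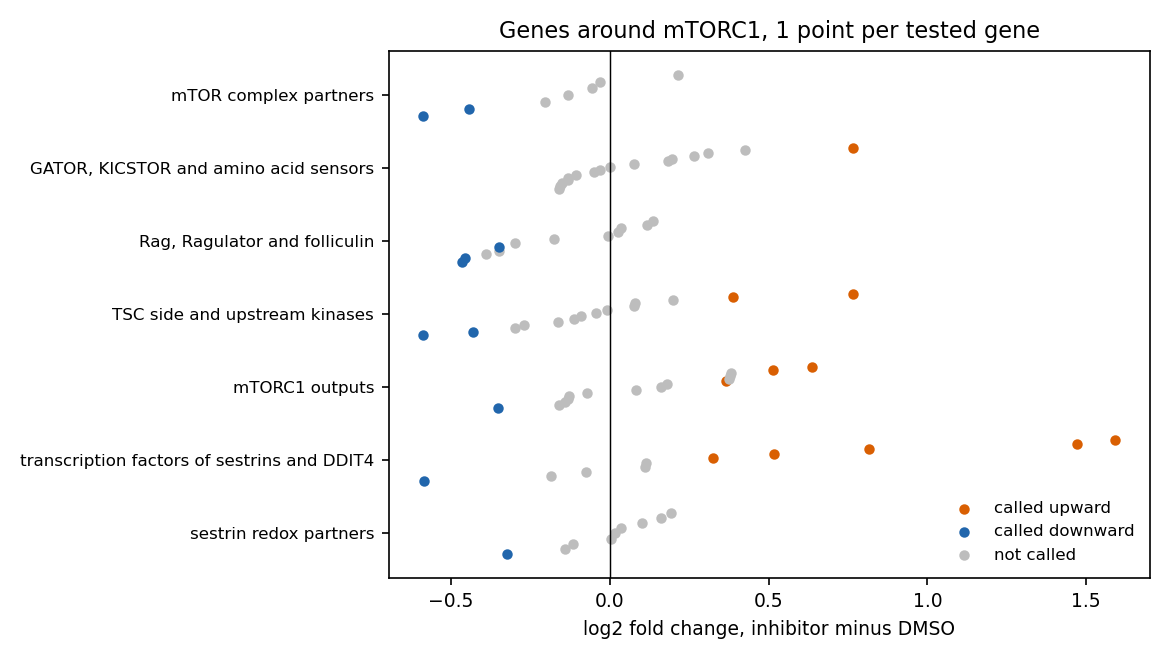
log2 fold change (inhibitor minus DMSO) of every tested gene of the 7 lists around mTORC1, with 1 point per gene, coloured by its call in the fit across all genes. The 3 folliculin genes lie between -0.47 and -0.35, and the largest values, ATF4 at 1.59 and ATF3 at 1.47, are in the list of transcription factors.

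Of 10 tested transcription factor genes known to act on sestrins or DDIT4, 5 rose and 1 fell, beside 9.92% of all tested genes upward and 10.3% downward. The list was chosen with earlier results of these data known, so nothing is read from these counts. ATF4, the central factor of the integrated stress response, rose from 275 ± 35.8 to 828 ± 110 CPM (1.59 ± 0.12, adjusted p = 2.05e-09). ATF3, which ATF4 induces, rose from 2.29 ± 0.32 to 6.33 ± 0.78 CPM (1.47 ± 0.22, adjusted p = 5.73e-05), and CEBPB from 3.43 ± 1.10 to 6.11 ± 1.63 CPM (0.82 ± 0.25, adjusted p = 0.0214). Named after their values were seen, the antioxidant factor NFE2L2 (0.33 ± 0.10, adjusted p = 0.0302) also rose, and FOXO1 changed by -0.58 ± 0.14 (adjusted p = 0.0041). HIF1A and DDIT3 are also named after their values were seen. HIF1A was at 241 ± 3.43 and 260.1 ± 26.3 CPM (0.11 ± 0.10, adjusted p = 0.485). DDIT3, at 0.16 ± 0.22 and 0.56 ± 0.17 CPM, had too few counts to be tested. A low amplicon count does not show that its mRNA was absent. All these values are of mRNA, and the activity of the factors was not measured.

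The calls of ATF4, ATF3 and FOXO1 held under every alternative in which the gene was tested. Only 3 rose without inhibitor replicate 1, inhibitor replicate 2 or DMSO replicate 2. With DESeq2, or with library totals as the scaling, 4 rose, and with limma voom 5. At a minimum mean of 10 CPM, which leaves ATF3 and CEBPB untested, 3 rose. CEBPB lost its call without inhibitor replicate 1 (0.175) or DMSO replicate 3 (0.105). NFE2L2 lost it without inhibitor replicate 2, inhibitor replicate 3, DMSO replicate 1 or DMSO replicate 2 (0.0634 to 0.155) and with library totals as the scaling (0.077).

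Sestrins are also known for antioxidant defence, where they work with the KEAP1-NRF2 system and peroxiredoxins. Of 9 tested genes of that side, 1 fell, beside 10.3% of all tested genes, and 0 rose, beside 9.92% (0 also at an unadjusted p under 0.05, with DESeq2 and with limma voom). The gene was KEAP1, the adaptor that marks NRF2 for destruction, from 54.3 ± 1.96 to 43.4 ± 2.61 CPM (-0.32 ± 0.11, adjusted p = 0.0374). Its call was lost without any one library other than inhibitor replicate 1 (adjusted p from 0.0532 to 0.134) and with upper-quartile scaling (0.0551). SQSTM1, TXNRD1 and the peroxiredoxin genes are named after their values were seen. SQSTM1, the autophagy receptor that binds KEAP1 and sestrins, was at 1054 ± 18.5 CPM with DMSO and 956 ± 102 with the inhibitor (-0.14 ± 0.10, adjusted p = 0.356). The peroxiredoxin genes PRDX2, PRDX3, PRDX4, PRDX5 and PRDX6 had log2 fold changes from -0.11 to 0.16, none of them called. PRDX1 (0.30 CPM with DMSO and 0.28 with the inhibitor) and TXNRD1 (0.51 and 0.48) had too few counts to be tested. Low amplicon counts do not show that their mRNA was absent. The counts of genes that rose or fell say nothing about PRDX1 and TXNRD1.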

How the data were processed

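Amplicon libraries of HT-1080 mRNA were read on the Ion Proton sequencer, per the labels' protocols. The authors deposited 1 table per library with whole-number counts of reads per gene symbol, not normalised. Per the submitters' processing notes, HTSeq, DESeq2 1.20.0 and the build hg19 were used, in roles that are not stated. The sources used here do not give the aligner, annotation or strand setting, so reads of overlapping or antisense genes and copies could not be separated.

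Groups and replicate numbers came from the titles. Depth was 7644478 to 15336351 counts, and the limit that a count of 0 allows (3 counts) was 0.191 to 0.402 CPM. Replicates differed by more than counting noise (chi-square per degree of freedom 9.32 to 14.7). Whether libraries came from separate cultures is not stated beyond the series design. The p-values therefore set group differences against the spread between these samples and reach no further.

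Counts were fitted in R 4.3.3 with edgeR 4.0.16 (filterByExpr, TMM, glmQLFit and glmQLFTest, no covariates) over 11391 genes, with Benjamini-Hochberg adjustment and a call at 0.05. SE is the log2 fold change over the square root of F. "Rose" and "fell" mean such calls. Alternatives used DESeq2 1.42.0, limma 3.58.1 and other scalings, filters, a replicate block, thinned libraries and each library left out.

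The members and gene lists were chosen with earlier results of these data known. From each list the text names the called genes with the largest absolute log2 fold change (at most 3), or the gene with the smallest p where none was called, and for SESN2 and DDIT4 the 3 nearest genes in pattern. Further genes are marked, and some list genes are counted but not reported here by name. The motifs and the promoter windows, read from RefSeq on GRCh38.p14 and used without the 50 bases after the start, were chosen after the data were seen.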

Additional observations from a re-analysis of the deposited data

How the results depend on the processing

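Across the 15 alternatives, SESN2 stayed between 2.38 and 2.51, DDIT4 between 2.21 and 2.42 and SESN1 between 0.50 and 0.63 (log2 fold change). These 3 genes were called upward in each. The alternatives refit the comparison on which the members were selected, so nothing further is read from those calls. SESN3 and RHEB changed sign between alternatives, within -0.14 to 0.22 and -0.07 to 0.06. Of the called genes in the 7 lists, 42 of 312 calls under alternatives were lost and none reversed. The count of all called genes was 2298, and 1405 without DMSO replicate 2, with a range of 1405 to 2246 over single libraries left out. The count of network genes that fell was 8, with a range of 3 to 7 over single libraries left out (3 without inhibitor replicate 2 and 4 without inhibitor replicate 1), and that of genes that rose was 6, with a range of 4 to 6. Fewer samples enter those fits. With a replicate block 2223 genes were called, 6 network genes rose and 8 fell, and DEPTOR lost its call. Replicate numbers did not pair the libraries (correlation of deviations 0.0317, -0.0166 and 0.00693). The SESN2 share of sestrin reads differed by 30.8 to 32.4 percentage points with any 1 library left out. Depth limits SESN3 and DEPTOR, with under 100 counts in each library.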
